A study of Mus musculus with 8 samples.

Results

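The genes described here are 9 components of bone morphogenetic protein (BMP) signalling in mouse ovarian follicular cells, measured with and without an siRNA against the transcription factor FOXL2. They comprise the ligands Bmp2, Bmp4 and Bmp6, the receptors Bmpr1a, Bmpr1b and Bmpr2, the extracellular antagonist Grem1, and the target genes Id1 and Id3. They were taken from a list of gene names and found by their Entrez gene ID, and all 9 were among the 24235 genes of the arrays. Primary cells were obtained from preantral follicles of female Swiss mice (age 8 weeks, 5 animals to a replicate) and were kept for 9 days in culture. All cells were moved to hormone-free medium with charcoal-treated serum. All received a DsRed plasmid together with 12 pmol of siRNA, either a non-targeting control pool or a pool against Foxl2. The methods give 24 h of growth before lysis after transfection, whereas the study elsewhere describes 24 h of siRNA before the E2 treatment. Vehicle or 100 nM 17β-estradiol (E2) was present for the last 10 h. Each siRNA was combined with each treatment, which made 4 groups of 2 one-colour arrays.

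BMPs are secreted dimers of the TGF-β superfamily. They bring together type I receptors such as BMPR1A and BMPR1B with a type II receptor such as BMPR2, whereupon the type I receptor phosphorylates SMAD1, SMAD5 and SMAD9, which enter the nucleus with SMAD4 and induce genes such as those of the ID family. Gremlin 1 binds certain BMPs outside the cell and keeps them from their receptors. In the ovary, oocytes, theca cells and granulosa cells produce different BMPs, and granulosa cells carry their receptors. FOXL2 is a forkhead transcription factor that maintains the granulosa cell fate.

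Signal is given as log2 of the background-subtracted spot intensity after scaling of the arrays to their 75th percentiles, so a difference of 1 is a doubling. Levels are compared between arrays for the same gene or the same list of genes, not between genes, since probes differ in brightness, and pairs of values are those of replicate 1 and replicate 2. Tests are from a limma fit to the 15637 genes whose median scaled signal was at least 10, two-sided, with Benjamini-Hochberg adjustment over all of these, and a gene is called below an adjusted p of 0.05. On each array 51.4 to 55.6% of probes rose well above background and 0 were saturated, and replicate arrays correlated at 0.989 to 0.992 across genes. Each of the 9 genes was well above background on all 8 arrays. Of 9 granulosa cell markers, 6 were well above background on all 8 arrays, whereas the FSH receptor gene Fshr and Amh were not on any array. Of 9 oocyte markers, 7 were well above background on 0 arrays.

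The label of the siRNA was checked on its target. Foxl2 averaged 13.23 ± 0.32 (SD, n = 2) under control siRNA with vehicle, 12.85 ± 0.12 under control siRNA with E2, 13.40 ± 0.01 under FOXL2 siRNA with vehicle, and 13.04 ± 0.11 under FOXL2 siRNA with E2. Averaged over the treatments, the difference was 0.18 (SE 0.10, limma adjusted p = 0.334), so the gene's signal was not lower on the arrays labelled FOXL2 siRNA. The brighter of its 2 probes differed by 0.18 (SE 0.10) and the other by -0.97 (SE 0.19, limma adjusted p = 0.0199 over 31485 probes), to 51.1% of the control. The gene's value mostly follows the brighter probe, which read 13.75 to 14.45 against 5.47 to 6.997 for the other. By qPCR, which is not part of these arrays, the study reports a decrease of the mRNAs targeted by its siRNA pools. The groups below are therefore those of the labels.

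A second point concerns the treatment titles of the control siRNA arrays. The study's own comparisons of these cells run as though the vehicle and E2 titles of the arrays with control siRNA were exchanged, and its E2 effect with control siRNA has the opposite sign to the one that follows from the titles. Titles are used here. For the comparisons that depend on them, calls and the main values are also given with the titles exchanged, and the comparison of the 2 siRNAs averaged over both treatments is the same either way.

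Over both treatments, 7 of the 9 genes fell and 1 rose with FOXL2 siRNA. Bmp2, Bmp6, Bmpr1a, Bmpr1b, Bmpr2, Grem1 and Id3 were 1.39 to 3.1-fold lower, Bmp4 was 1.73-fold higher, and Id1 did not pass the test. Among all genes tested in this comparison, 12.6% were called, 6.18% as lower and 6.4% as higher. The median difference of the 9 genes was -0.82, against -0.0025 over all genes. The 9 genes were chosen with earlier results of these data known, so setting them against all genes is a description. All 4 arrays with FOXL2 siRNA lay below all 4 control arrays for 6 of the 9 genes and above them for 1, whereas 10.7% of all genes were separated in this way downward and 10.1% upward.

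**Figure D1:**
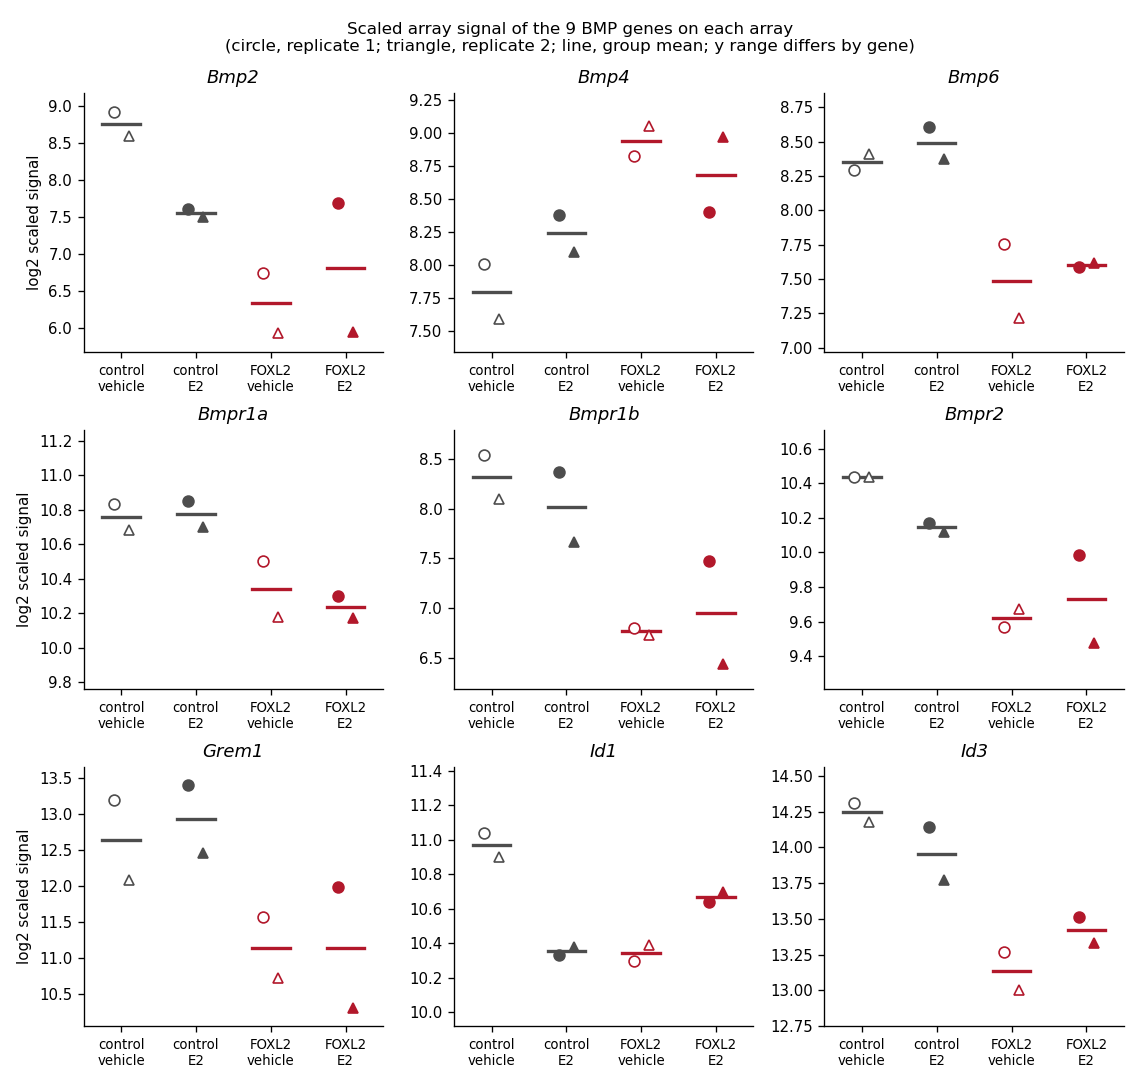
Each panel plots 1 gene, with the log2 scaled signal on the y axis and the 4 groups on the x axis, control siRNA in grey and FOXL2 siRNA in red, vehicle as open and E2 as filled symbols. Lines are means of the 2 arrays of a group, and the y range differs between panels: Bmp6, Bmpr1a, Bmpr1b, Bmpr2, Grem1 and Id3 lie lower on all 4 red arrays, Bmp4 lies higher, Bmp2 overlaps on 1 array, and Id1 is highest with control siRNA and vehicle.

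Other cell types were followed through their markers. The summed scaled signal of a theca list, of which 3 of 4 measured genes were well above background on all 8 arrays and the LH receptor gene Lhcgr on none, ranged from 20830 to 23820 units on control siRNA arrays and from 38780 to 41260 on FOXL2 siRNA arrays. Cyp11a1, which cleaves cholesterol in all steroid-producing cells, was the 1 theca marker called, at 0.89 higher (limma adjusted p = 0.000196). Cyp11a1 made up most of the theca sum, with means of 19300 units with vehicle and 17100 with E2 under control siRNA. Under FOXL2 siRNA its means were 34900 and 32600 units. Cyp17a1 (0.62, limma adjusted p = 0.11) and Star (0.47, limma adjusted p = 0.105) were not called. Of a surface epithelium list, 3 of 5 genes were well above background on all 8 arrays and none was absent from all. Its summed signal ranged from 17260 to 19340 units with control siRNA and from 24100 to 26060 with FOXL2 siRNA. Krt18 made up most of this sum, with means of 14100 units with vehicle and 14700 with E2 under control siRNA. Under FOXL2 siRNA its means were 20400 and 19300 units. In this list 3 genes were called higher, Krt18 (0.47, limma adjusted p = 0.00384), Krt8 (0.29, limma adjusted p = 0.0123) and Upk1b (1.32, limma adjusted p = 0.0033). Krt7 (0.68, limma adjusted p = 0.517) and Krt19 (0.83, limma adjusted p = 0.118) were not called. In the oocyte, macrophage, endothelial, fibroblast or stroma, and smooth muscle lists 0 genes were called, and each summed signal overlapped between the siRNAs. The summed signal of the granulosa list overlapped between the siRNAs as well, from 72740 to 82640 units with control siRNA and from 74970 to 82410 with FOXL2 siRNA. Under control siRNA with vehicle, Inha (40300 units) and Inhba (22800) made up most of this sum, against 2580 for Fst and 3520 for Esr2. The sum therefore says little about the other genes of the list. Of its 7 genes tested, 2 were called lower, Fst and the estrogen receptor gene Esr2 (-0.46, adjusted p = 0.0167), and 0 higher, with Nr5a2 at 0.35 (adjusted p = 0.117), Inha at 0.12 (adjusted p = 0.231), Inhba at -0.04 (adjusted p = 0.747) and the aromatase gene Cyp19a1 at -0.75 (adjusted p = 0.0817) among the others. The part of these shifts in the differences of the BMP genes was not tested. In cultures such as these, fewer cells of a type and less RNA per cell cannot be told apart.

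Among the ligands, Bmp2 and Bmp6 fell and Bmp4 rose. Bmp2 encodes a ligand that binds BMPR1A and BMPR1B. It read 8.92 and 8.59 under control siRNA with vehicle, 7.60 and 7.50 under control siRNA with E2, 6.74 and 5.93 under FOXL2 siRNA with vehicle, and 7.68 and 5.94 under FOXL2 siRNA with E2. The control siRNA arrays with vehicle stood highest, and replicate 1 of FOXL2 siRNA with E2 lay just above both control arrays with E2. Averaged over the treatments, Bmp2 differed by -1.58 (SE 0.36, limma adjusted p = 0.028), 2.99-fold lower. Its call was lost when any 1 control siRNA array, or replicate 2 of FOXL2 siRNA with vehicle, was left out, at differences of -1.66 to -1.37 and adjusted p of 0.0624 to 0.0962.

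Bmp4, a ligand related to Bmp2 and known in the ovary as a theca cell product, was the only member that rose. It read 8.00 and 7.59 under control siRNA with vehicle, 8.38 and 8.10 under control siRNA with E2, 8.83 and 9.05 under FOXL2 siRNA with vehicle, and 8.40 and 8.97 under FOXL2 siRNA with E2. The groups did not overlap, although replicate 1 of FOXL2 siRNA with E2 stood only slightly above the highest control array. The difference was 0.79 (SE 0.16, limma adjusted p = 0.0163). It missed the threshold without replicate 2 of control siRNA with vehicle (0.69 at an adjusted p of 0.051), of control siRNA with E2 (0.72 at an adjusted p of 0.0662) or of FOXL2 siRNA with vehicle (0.74 at an adjusted p of 0.0635). Of the 2 probes for Bmp4, A_55_P1959022 was well above background on 0 arrays, so the gene's value rests on A_55_P2154387, which differed by 0.81 (SE 0.16).

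Bmp6 encodes a ligand of another branch of the family, made by oocytes and granulosa cells. It read 8.30 and 8.41 under control siRNA with vehicle, 8.60 and 8.38 under control siRNA with E2, 7.75 and 7.22 under FOXL2 siRNA with vehicle, and 7.59 and 7.62 under FOXL2 siRNA with E2. All FOXL2 siRNA arrays lay well below all control arrays. The difference was -0.88 (SE 0.13, limma adjusted p = 0.00471), 1.84-fold lower, and it remained called with each of the 8 arrays left out in turn, with a highest adjusted p of 0.0266.

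All 3 receptor genes fell over both treatments. Bmpr1b encodes a type I receptor that is prominent in granulosa cells and affects the ovulation rate in sheep. It read 8.54 and 8.09 under control siRNA with vehicle, 8.37 and 7.66 under control siRNA with E2, 6.80 and 6.73 under FOXL2 siRNA with vehicle, and 7.48 and 6.44 under FOXL2 siRNA with E2. The lowest control array, replicate 2 with E2, stood just above the highest FOXL2 siRNA array, replicate 1 with E2. The difference was -1.30 (SE 0.25, limma adjusted p = 0.0145), 2.47-fold lower, and it missed the threshold without replicate 1 of control siRNA with E2 (-1.13 at an adjusted p of 0.0549) or replicate 2 of FOXL2 siRNA with vehicle (-1.28 at an adjusted p of 0.0529). The 2 probes for Bmpr1b gave similar differences, -1.47 (SE 0.17) for A_52_P586944 and -1.27 (SE 0.27) for A_66_P136389.

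Bmpr1a, the other type I receptor gene, is expressed in many tissues. It read 10.83 and 10.68 under control siRNA with vehicle, 10.85 and 10.70 under control siRNA with E2, 10.50 and 10.18 under FOXL2 siRNA with vehicle, and 10.30 and 10.17 under FOXL2 siRNA with E2. The groups did not overlap, but the shift was the smallest of the called genes, -0.48 (SE 0.09, limma adjusted p = 0.0139), 1.39-fold lower. It missed the threshold without replicate 1 of control siRNA with E2 (-0.44 at an adjusted p of 0.0582) or replicate 2 of FOXL2 siRNA with E2 (-0.44 at an adjusted p of 0.0541). Bmpr2 encodes the type II receptor that pairs with both. It read 10.44 and 10.44 under control siRNA with vehicle, 10.17 and 10.12 under control siRNA with E2, 9.57 and 9.67 under FOXL2 siRNA with vehicle, and 9.98 and 9.48 under FOXL2 siRNA with E2. The FOXL2 siRNA arrays again lay below the control arrays without overlap, by -0.62 (SE 0.11, limma adjusted p = 0.0102), 1.53-fold lower, and the call held with each array left out.

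The antagonist Grem1 fell as well, with a wide spread between replicates. Its product, gremlin 1, binds BMP2 and BMP4. It read 13.19 and 12.09 under control siRNA with vehicle, 13.40 and 12.46 under control siRNA with E2, 11.57 and 10.73 under FOXL2 siRNA with vehicle, and 11.99 and 10.31 under FOXL2 siRNA with E2. In every group replicate 1 was the higher, by 0.84 to 1.68, and the highest FOXL2 siRNA array stood just below the lowest control array. The difference was -1.63 (SE 0.43, limma adjusted p = 0.0471), 3.1-fold lower. The call held only without replicate 1 of FOXL2 siRNA with E2 and was lost when any 1 of the other 7 arrays was left out, at differences of -1.91 to -1.21 and adjusted p of 0.0505 to 0.144. Tested as a single probe among 31485 probes, Grem1 had an adjusted p of 0.0577. With the replicate number as a block in the gene-level fit, the difference was the same and its SE was 0.11. Its limma adjusted p was then 6.29e-07, where 27.7% of all genes were called.

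Of the targets, Id3 fell and Id1 did not pass the test over both treatments. ID proteins bind basic helix-loop-helix transcription factors and keep them from DNA, and their genes respond directly to BMP-activated SMADs. Id3 read 14.31 and 14.18 under control siRNA with vehicle, 14.14 and 13.77 under control siRNA with E2, 13.27 and 13.00 under FOXL2 siRNA with vehicle, and 13.51 and 13.33 under FOXL2 siRNA with E2. The arrays did not overlap, and the difference of -0.82 (SE 0.10, limma adjusted p = 0.00247), 1.77-fold lower, was called with each array left out. Id1 read 11.04 and 10.90 under control siRNA with vehicle, 10.33 and 10.38 under control siRNA with E2, 10.30 and 10.39 under FOXL2 siRNA with vehicle, and 10.64 and 10.70 under FOXL2 siRNA with E2. Only the control siRNA arrays with vehicle stood above all others, and Id1 differed by -0.15 averaged over the treatments (SE 0.06, limma adjusted p = 0.169).

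To show the sequence next to the genes whose signal changed, RefSeq promoter windows (GRCm38.p6, the bases directly before a transcript start) were read for the members. Windows were found for 7 of the 9 genes, with 9 windows in all because Bmpr1b has several starts. Both strands of the 250 upstream bases were searched for a forkhead motif (GTAAACA as the first form, GTAAATA as the second, ATAAACA as the third and ATAAATA as the last), an estrogen response half-site (AGGTCA) and a GC-rich SMAD motif (GGCGCC). A forkhead match lay in 1 of the 9 windows, against 13.6% of all 32851 windows, a half-site in 2, against 14%, and the SMAD motif in 3, against 9.59%. The windows of Bmpr1b, Grem1 and Bmp4 are printed 5′ to 3′ on the gene strand with matches in capitals because these are the receptor with the largest change, the antagonist and the 1 member that rose. All lie on the minus strand, Bmpr1b at chr3:141931421-141931670, Grem1 at chr2:113758649-113758898 and Bmp4 at chr14:46390670-46390919.
Bmpr1b: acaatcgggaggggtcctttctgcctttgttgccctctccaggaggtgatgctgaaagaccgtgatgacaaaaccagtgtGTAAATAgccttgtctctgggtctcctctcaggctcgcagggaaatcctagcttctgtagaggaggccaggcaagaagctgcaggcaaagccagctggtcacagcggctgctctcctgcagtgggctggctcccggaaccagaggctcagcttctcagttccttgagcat
Grem1: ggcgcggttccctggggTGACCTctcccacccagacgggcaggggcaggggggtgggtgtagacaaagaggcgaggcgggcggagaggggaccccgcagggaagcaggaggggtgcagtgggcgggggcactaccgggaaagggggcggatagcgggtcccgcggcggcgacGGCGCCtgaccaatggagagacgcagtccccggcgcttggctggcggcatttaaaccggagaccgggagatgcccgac
Bmp4: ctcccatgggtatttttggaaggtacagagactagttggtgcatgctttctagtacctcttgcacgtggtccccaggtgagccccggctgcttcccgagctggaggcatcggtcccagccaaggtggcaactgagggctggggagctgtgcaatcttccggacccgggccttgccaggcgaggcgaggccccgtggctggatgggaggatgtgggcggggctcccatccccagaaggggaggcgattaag
The Bmpr1b window printed is the one with the forkhead match, GTAAATA from 170 to 164 bases before its start. Of the other Bmpr1b windows, the one at chr3:141931589-141931838 holds AGGTCA 106 to 101 bases before its start. The one at chr3:141982265-141982514 holds none of the motifs. The Grem1 window holds TGACCT, the half-site read on the other strand, 233 to 228 bases before the start and GGCGCC 78 to 73 bases before it. None of the motifs was found in the Bmp4 window. A match is a string of letters and does not show that a factor binds there.

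Split by treatment as titled, the siRNA comparison made most of its calls with vehicle. There 6 of the 9 genes fell and 1 rose, against 6.57% of all genes called, 2.94% as lower and 3.63% as higher. Bmp2 fell by 2.42 (SE 0.51, limma adjusted p = 0.0328), 5.35-fold lower, and Bmpr1b fell by 1.55 (SE 0.36, limma adjusted p = 0.0457). Id3, Bmp6, Bmpr2 and Id1 fell by 1.11, 0.87, 0.82 and 0.63, with adjusted p of 0.00598, 0.0339, 0.0221 and 0.00787. Bmp4 rose by 1.14 (SE 0.22, limma adjusted p = 0.0247). Bmpr1a (-0.41, adjusted p = 0.12) and Grem1 (-1.49, adjusted p = 0.231) did not pass, with 95% intervals of -0.72 to -0.11 and -2.90 to -0.07. Of the 7 calls, 2 were left without either replicate of FOXL2 siRNA with vehicle or replicate 2 of control siRNA with vehicle, 3 without replicate 1 of the latter, 4 without either replicate of control siRNA with E2, and 6 without either replicate of FOXL2 siRNA with E2. Id3 was called in all 8 of these fits. With the replicate number as a block in the fit, all 9 genes were called with vehicle, against 18.8% of all genes, Bmpr1a at an adjusted p of 0.00528 and Grem1 at 3.45e-05.

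With E2, only Bmp6 was called, at -0.89 (SE 0.18, limma adjusted p = 0.0397), where 4.39% of all genes were called, 2.14% as lower and 2.25% as higher. Bmpr1a differed by -0.54 (adjusted p = 0.0655), Id3 by -0.53 (adjusted p = 0.0987), Bmpr1b by -1.06 (adjusted p = 0.177), Grem1 by -1.78 (adjusted p = 0.182), Bmpr2 by -0.41 (adjusted p = 0.23) and Bmp2 by -0.74 (adjusted p = 0.549). Bmp4 differed by 0.44 (adjusted p = 0.387) and Id1 by 0.32 (adjusted p = 0.111), both upward. Bmp6 lost its call without any 1 array except either replicate of FOXL2 siRNA with vehicle, at adjusted p of 0.058 to 0.232. Without replicate 1 of FOXL2 siRNA with E2, Bmpr2 was called in its place, at -0.67. With the replicate number as a block, 7 of the 9 were called with E2, against 14.9% of all genes. These were Bmp6, Bmpr1a (adjusted p = 0.00105), Bmpr1b (adjusted p = 0.00205), Bmpr2 (adjusted p = 0.0496), Grem1 (adjusted p = 1.37e-05) and Id3 (adjusted p = 0.000905) as lower and Id1 (adjusted p = 0.0304) as higher, whereas Bmp2 (adjusted p = 0.116) and Bmp4 (adjusted p = 0.159) were not. The differences are the same in both fits and their SEs are smaller with the block, 0.15 against 0.61 for Grem1. Calls made with vehicle and missed with E2 do not show that the effects differ, which is tested below.

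With the control titles exchanged, the comparison with vehicle called only Bmp6 (adjusted p = 0.0255) and Id3 (-0.82, adjusted p = 0.023), where 4.67% of all genes were called. The comparison with E2 called Bmpr2 (-0.71, adjusted p = 0.0462) and Id3 (-0.82, adjusted p = 0.0237), where 4.85% of all genes were called. The difference of Bmp2 became -1.22 with vehicle and -1.94 with E2, that of Bmpr1b -1.25 and -1.36, that of Grem1 -1.78 and -1.49, that of Bmpr1a -0.43 and -0.52, and that of Bmp4 0.70 and 0.89. Bmp6 differed by -0.75 with E2 and Bmpr2 by -0.53 with vehicle. For 8 genes the sign was the same in both treatments under either reading of the titles. Id1 was the exception, at -0.63 with vehicle and 0.32 with E2 as titled, and -0.01 and -0.30 when exchanged.

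**Figure D2:**
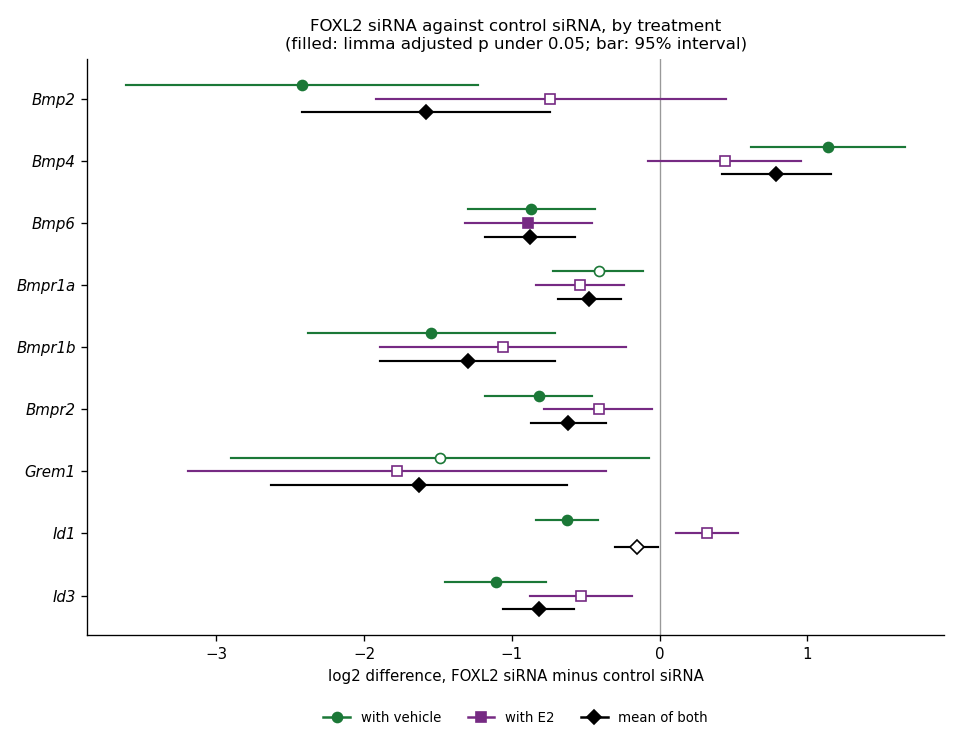
The x axis gives the log2 difference of FOXL2 siRNA minus control siRNA for the 9 genes, with vehicle, with E2 and as the mean of both, using the titles as deposited. Bars are 95% intervals and filled symbols are called: 7 genes with vehicle, Bmp6 with E2, and all but Id1 over both treatments, with Bmp4 the only gene called to the right of 0.

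No member was called for E2 itself. With control siRNA, 0 of the 9 genes were called (limma, against 0.0192% of all genes), and 2 of the 9, Bmp2 and Id1, had an unadjusted p under 0.05, as had 4.58% of all genes. With FOXL2 siRNA 0 were called (against 0.0128%), and Id1 alone had an unadjusted p under 0.05, as had 3.06% of all genes. With the replicate number as a block, Id1 was called for E2 with control siRNA (adjusted p = 0.00554, where 1.16% of all genes were called). As titled, Id1 was lower with E2 under control siRNA, by -0.62 (SE 0.09, limma adjusted p = 0.121), and higher with E2 under FOXL2 siRNA, by 0.33 (SE 0.09, limma adjusted p = 1). Bmp2 differed by -1.20 (SE 0.51, limma adjusted p = 0.999) and 0.48 (SE 0.51, limma adjusted p = 1). Both of its control arrays with E2 lay below both with vehicle, as did those of 15.8% of all genes, and its FOXL2 siRNA arrays overlapped. For Bmp6, Bmpr1a, Bmpr1b and Grem1 the arrays with E2 and with vehicle overlapped under both siRNAs. By a rule without p-values, which asks for a difference of at least 1 that exceeds 2 times the sum of both SDs, 1 gene (Bmp2) qualified with control siRNA and 0 with FOXL2 siRNA.

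The 2 E2 effects were compared directly. Id1 was the only member whose difference between the siRNAs passed the test, at 0.94 (SE 0.13, limma adjusted p = 0.0446), where 0.243% of all genes were called. Id3 had a difference in the same direction, 0.58 (SE 0.21, limma adjusted p = 0.856), and Bmp2 one of 1.68 (SE 0.72, limma adjusted p = 1, 95% interval 0.00 to 3.36). The Id1 call was lost with each of the 8 arrays left out, at 0.87 to 1.01 and adjusted p of 0.119 to 0.226. With the replicate number as a block, Id3 was called as well (adjusted p = 0.0254, where 2.12% of all genes were called). With the control titles exchanged, the E2 effect of Id1 under control siRNA was 0.62 and the difference between the siRNAs was -0.29 (SE 0.13, limma adjusted p = 1). That of Bmp2 was then 1.20 and the difference -0.73. The sign of every E2 value with control siRNA therefore rests on the titles.

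**Figure D3:**
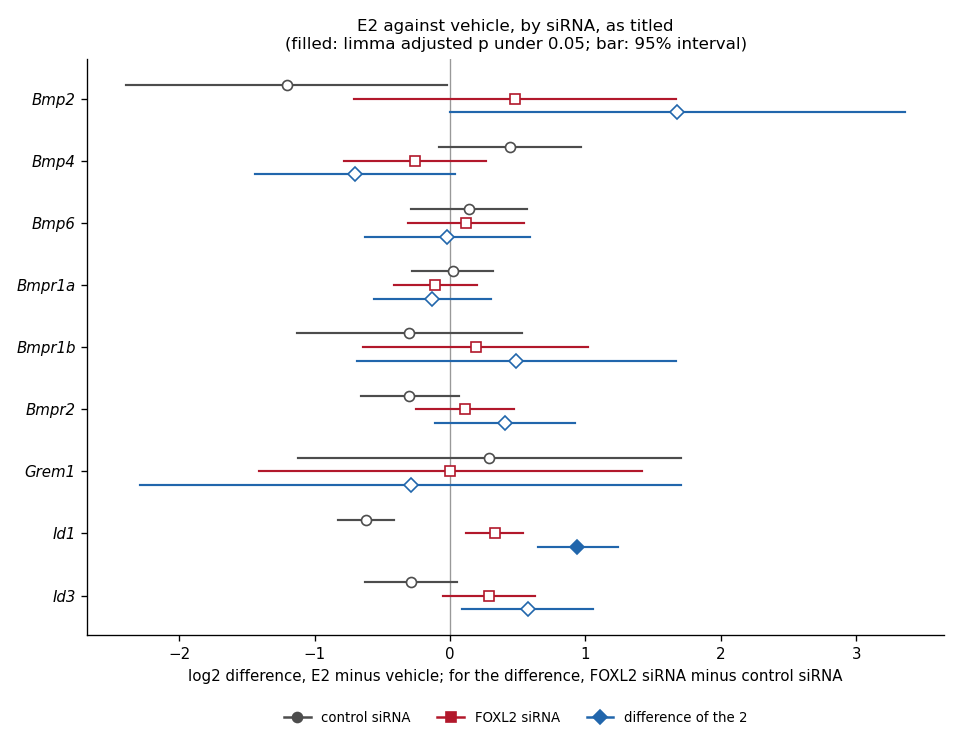
The x axis gives the log2 difference of E2 minus vehicle for the 9 genes under each siRNA as titled, and the difference between these (FOXL2 siRNA minus control siRNA). Bars are 95% intervals, and the 1 filled symbol is the Id1 difference of 0.94.

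The rest of the pathway was read from a list of 52 other BMP genes, of which 42 passed the filter on dim genes. Over both treatments 3 of the 42 fell and 4 rose, where 6.18% of all genes were called lower and 6.4% higher, so the share called was near that of all genes. The median difference of the 42 was -0.035. With the replicate number as a block 7 fell and 10 rose, where 27.7% of all genes were called. Fst, whose product follistatin binds activins and some BMPs, fell by 2.02 (SE 0.13, limma adjusted p = 0.000228) (limma adjusted p = 0.00208 with vehicle and 0.00243 with E2), and was called in all 8 fits with 1 array left out in each comparison. Fst is also on the granulosa marker list. Its group means were 11.34 under control siRNA with vehicle, 11.27 under control siRNA with E2, 9.34 under FOXL2 siRNA with vehicle and 9.24 under FOXL2 siRNA with E2. Grem1 and Fst, both lower over both treatments, encode secreted proteins that bind ligands of this superfamily.

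The other called genes of the list changed less. Twsg1, a BMP-binding protein that works with chordin, fell by 0.43 (SE 0.08, limma adjusted p = 0.0121) over both treatments and by 0.62 with E2 (adjusted p = 0.0248, lost without any 1 array that received E2). Smad6, an inhibitory SMAD, fell by 0.39 (SE 0.09, limma adjusted p = 0.0273). The ligand genes Gdf6 and Bmp8b rose by 0.97 (SE 0.13, limma adjusted p = 0.00307) and by 0.87 (SE 0.17, limma adjusted p = 0.0138). Gdf6 was also called with vehicle, at 1.09, and with E2, at 0.84, though in 5 and 2 of the 8 fits with 1 array left out. Bmp8b was called with E2 as well, at 1.11 (limma adjusted p = 0.0429), but in 0 of the 8 fits with 1 array left out (adjusted p up to 0.221). With the control titles exchanged, Fst (-1.94 and -2.10) and Gdf6 (0.96 and 0.97) were called with vehicle and with E2, Bmp8b with E2 (1.09), and Twsg1 with vehicle (-0.52) but not with E2 (-0.34, adjusted p = 0.162). The receptor gene Acvrl1 rose by 0.59 (SE 0.14, limma adjusted p = 0.0288), and the follistatin-like gene Fstl1 by 0.54 (SE 0.11, limma adjusted p = 0.0198). Over both treatments, the call of Gdf6 held with each array left out. Twsg1 lost its call without replicate 1 of control siRNA with E2 (adjusted p = 0.0505), and Bmp8b without that array or either replicate of FOXL2 siRNA with E2 (with adjusted p up to 0.0542). Fstl1 lost it without replicate 2 of either control siRNA group or either replicate of FOXL2 siRNA with E2 (with adjusted p up to 0.0765), and Smad6 without replicate 1 of either control siRNA group or replicate 2 of either FOXL2 siRNA group (adjusted p up to 0.0947). Acvrl1 held only without replicate 1 of control siRNA with vehicle or replicate 2 of control siRNA with E2 (adjusted p up to 0.1 without 1 of the others).

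The SMAD genes that carry the signal were not called in any comparison of the siRNAs without the block. Over both treatments Smad1 differed by -0.30 (SE 0.20, limma adjusted p = 0.385), Smad5 by -0.10 (SE 0.07, limma adjusted p = 0.414) and Smad9 by -0.49 (SE 0.20, limma adjusted p = 0.164, or 0.0472 with the replicate number as a block). Without the block, none of the 4 coreceptor genes and none of the 9 other target genes was called over both treatments, Id2 among them at -0.21 (SE 0.08, limma adjusted p = 0.153, or 0.0488 with the block). The block added the coreceptor gene Neo1 (0.18, adjusted p = 0.0387) and the target genes Msx1 (-0.31, adjusted p = 0.0255) and Runx2 (-0.33, adjusted p = 0.0235). Of the 2 oocyte-derived ligands, Bmp15 was well above background on 0 of the 8 arrays, and Gdf9 differed by 0.03 (SE 0.15, limma adjusted p = 0.929). With E2 against vehicle, 0 of the 42 genes were called by limma under either siRNA, and 4 had an unadjusted p under 0.05 with control siRNA (4.58% of all genes did) and 0 had one with FOXL2 siRNA (3.06% of all genes). With the block, 1 of the 42, Atoh8, was called for E2 with control siRNA (0.72, adjusted p = 0.00708). Atoh8 was also the 1 gene of the 42 that the block called for the difference between the E2 effects (-0.97, limma adjusted p = 0.00527).

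**Figure D4:**
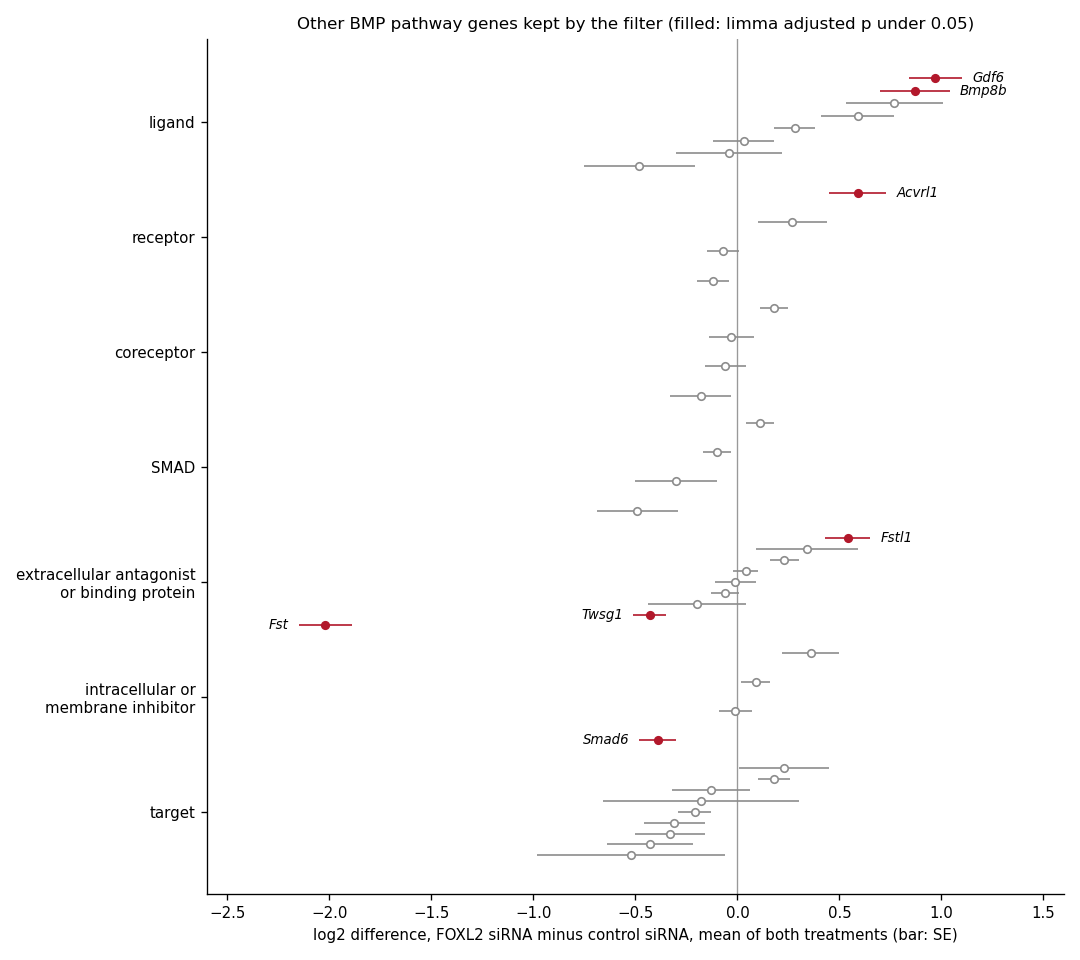
Points are the 42 other BMP pathway genes kept, placed by role, with the log2 difference of FOXL2 siRNA minus control siRNA over both treatments on the x axis and its SE as a bar. The 7 named and filled genes were called, with Fst at -2.02 far to the left of the rest.

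For 3 members the genes with the most similar pattern over the 8 arrays were sought among 12279 genes well above background on every array. These 8 arrays hold the 4 groups, so the correlations follow the group differences as well as the spread within groups, and they are given as a description. Bmp2 was most like Stimate (r = 0.964), Omd (r = 0.962), which encodes the matrix proteoglycan osteomodulin, and Dpp3 (r = 0.962), a peptidase gene. Among the genes most like Bmpr1b were the transcription factor genes Runx1 (r = 0.982) and Bcl11a (r = 0.975). Grem1 was most like the integrin gene Itga9 (r = 0.988), Ramp2 (r = 0.987), which encodes a partner of the calcitonin-like receptor, and Egfr (r = 0.986), the gene of the epidermal growth factor receptor.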

How the data were processed

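RNA (50 ng per sample) was labelled with Cy3 and hybridised to 8 Agilent one-colour arrays on 1 slide. Per the file headers, the deposited intensity values were background-subtracted by the authors' Feature Extraction software. The authors' deposited table holds log2 values relative to the 75th percentile, averaged over the probes of a gene, and 98.8 to 99.0% of its values per array equalled those recomputed here within 0.001 after removal of 1 offset per array. Groups came from sample titles. Here, 55642 probes were brought to a common 75th percentile (275 to 367 units before), averaged per Entrez ID and fitted as 4 group means in limma (3.58.1, with R 4.3.3) with an intensity trend and 4 residual degrees of freedom. The fit was tested on simulated data. Symbols came from RefSeq, whose table (GRCm38.p6) differs in build from the arrays (mm9), so gene positions are printed only with promoters. Members and lists were chosen with earlier results of these data known. Named were the members, Foxl2, Smad1, Smad5, Smad9, Bmp15, Gdf9, up to 4 called pathway genes per direction and siRNA comparison, and the 3 genes most like Bmp2, Bmpr1b and Grem1. Of these, 1 pathway gene, left out of the list and its counts, and 1 gene like Bmpr1b are not reported here. Id2, Neo1, Msx1, Runx2, Atoh8 and the markers other than Foxl2 and Fst were named after their values were seen. Alternatives were normexp (on the median spot signal, since no mean is in the files used), quantile normalization, other scaling, probe, filter and variance settings, left-out arrays, a replicate block and, chosen after seeing the data, exchanged control titles. The 2 arrays per group limit precision. Replicates are from different mice, pooled per replicate. The labels do not say that equal replicate numbers in different groups mark the same pool, but deviations of same-numbered arrays from their group means correlated at 0.33 to 0.45 across genes in all 6 pairs of groups, so values with the replicate number as a block are given where they change a call.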

Additional observations from a re-analysis of the deposited data

Results flagged for a closer look

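Id1 stood out by a difference between the 2 siRNAs. As titled, its E2 effect with FOXL2 siRNA minus that with control siRNA was 0.94 on the log2 scale (SE 0.13, 95% interval 0.65 to 1.24, limma adjusted p = 0.0446). It was the only member that passed this test in the fit without a replicate block, where 0.243% of all genes were called. Both arrays with E2 lay below both with vehicle under control siRNA, as they did for 15.8% of all genes. Both lay above under FOXL2 siRNA, as they did for 10.3% of all genes. With the treatment titles of the control siRNA arrays exchanged, the difference was -0.29 and was not called. The call was also lost with any 1 array left out, at differences of 0.87 to 1.01. It was lost as well without the filter on dim genes, without an intensity trend and with the brightest probe of each gene. With the replicate number as a block, Id3 passed too (0.58, limma adjusted p = 0.0254).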

How the results depend on the processing

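Over both treatments the 8 calls held in number at 6 to 8 under each processing alternative, and some were lost when 1 array was left out. Exchanging the control titles leaves this comparison the same by construction, so it is no check of these calls. The comparison with vehicle (7 calls) gave 3 without the filter on dim genes, 2 without an intensity trend, 2 with exchanged titles, 4 by the rule on group means and SDs, and 2 to 6 with 1 array left out. The comparison with E2 (1 call) gave 0 without the filter, 0 without the trend, 2 with exchanged titles, 0 by that rule, and 0 to 1 with 1 array left out. The E2 comparison with control siRNA (0 calls) gave 1 by that rule, Bmp2. The difference between the E2 effects (1 call) gave 0 with the brightest probe of each gene, without the filter, without the trend, with exchanged titles and with any 1 array left out. With exchanged titles, 4.67% of all genes were called with vehicle, 4.85% with E2 and 0 for the difference between the E2 effects. The number of genes tested differs without the filter, and the cause of the other changes was not tested.

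With a replicate block, 9 members were called with vehicle, 7 with E2, 8 over both treatments, 1 for E2 with control siRNA (Id1), 0 for E2 with FOXL2 siRNA and 2 for the difference between the E2 effects (Id1 and Id3). In the same order, the block called 18.8%, 14.9%, 27.7%, 1.16%, 0.614% and 2.12% of all genes. Over both treatments, the block gave limma adjusted p of 0.000102 for Bmp2, 1.45e-05 for Bmpr1b and 6.29e-07 for Grem1.

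Exchanging the control titles reversed the sign of the E2 effect with control siRNA by construction, to 1.20 for Bmp2, -0.44 for Bmp4, -0.14 for Bmp6, -0.02 for Bmpr1a, 0.30 for Bmpr1b, 0.30 for Bmpr2, -0.29 for Grem1, 0.62 for Id1 and 0.29 for Id3. The difference between the E2 effects reversed to -0.73 for Bmp2, 0.19 for Bmp4, 0.25 for Bmp6, -0.11 for Bmpr1b, -0.19 for Bmpr2, 0.29 for Grem1, -0.29 for Id1 and -0.0032 for Id3. The siRNA difference of Id1 with E2 became -0.30. With 1 array left out, only values that had not been called changed sign. For E2 with FOXL2 siRNA these ranged from -0.39 to 1.35 for Bmp2, -0.54 to 0.03 for Bmp4, -0.15 to 0.38 for Bmp6, -0.27 to 0.05 for Bmpr1a, -0.33 to 0.71 for Bmpr1b, -0.14 to 0.36 for Bmpr2 and -0.84 to 0.84 for Grem1. For E2 with control siRNA they ranged from -0.06 to 0.10 for Bmpr1a, -0.65 to 0.06 for Bmpr1b and -0.26 to 0.84 for Grem1. For the difference between the E2 effects they ranged from -0.29 to 0.25 for Bmp6, -0.29 to 0.03 for Bmpr1a, -0.03 to 1.01 for Bmpr1b and -1.13 to 0.55 for Grem1, and the siRNA difference of Bmp2 with E2 from -1.61 to 0.13.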
